A study of Mus musculus with 20 samples.

Results

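The genes described here build the junctions between neighbouring cells and set up the apical side of a cell: 36 genes, chosen by name, of the 18193 genes that the arrays measured. They were 7 genes of adherens junctions, 10 of tight junctions, 5 of desmosomes and 14 of the PAR, Crumbs and Scribble polarity modules together with the apical linker gene Ezr. All 36 had a probe set annotated to them, and each was read by its brightest one. The list was drawn up with earlier results of these data known, so its shares beside those of all genes are descriptions only. The samples were 20 single cells of the inner cell mass, taken from C57BL/6 mouse embryos at the blastocyst stage (embryonic day 3.5) and freed by trypsin and EDTA. Each cell was hybridised to its own Affymetrix array after PCR amplification of its cDNA. The cells formed 1 group and carried no treatment, and the labels did not tie them to embryos. Per the series design, 55 cells were picked and 50 of them passed a PCR screen that asked for Oct4 (Pou5f1) and for no Cdx2, a gene of the trophectoderm.

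Adherens junctions join cells through cadherins, which hold the actin skeleton by way of catenins. Tight junctions seal the space between epithelial cells, with claudins and occludin in the membrane and the zonula occludens proteins and cingulin beneath it. Desmosomes tie the keratin filaments of neighbouring cells together. The PAR complex, made of a Pard3, a Pard6 and an atypical protein kinase C, and the Crumbs complex mark the apical side, while the Scribble, Dlg and Llgl proteins mark the basolateral side. In the blastocyst these systems are best known from the trophectoderm, the sealed outer layer. The inner cell mass that it encloses gives rise to the epiblast and to the primitive endoderm, which later forms a polarised epithelium of its own.

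Values are given as log2(intensity + 8.77) after quantile normalization, so the lowest possible value is 3.29. A gene counted as above the floor in a cell when it exceeded the 95th percentile of 237 probe sets for genes of unrelated tissues and for olfactory and vomeronasal receptors on that array. The floor lay between 7.13 and 7.90, and values under it have no measured level. Levels of different genes are not comparable on this scale. The number of genes above the floor per cell was 5593 to 6790, and the median deposited intensity was lowest in cell 19 and 25.6 to 30.2 in the others. Precision is limited by there being 20 arrays. Pou5f1 was above the floor in 20 of 20 cells (10.85 ± 0.49, SD, n = 20).

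The cells were divided into 2 clusters by genes outside all lists used here, as a frame for description. Cells 1, 2, 7, 9, 12, 13, 14, 16, 18 and 19 are called epiblast-like, with Fgf4 and Klf2 among the 10 genes with the largest difference in their favour. Cells 3, 4, 5, 6, 8, 10, 11, 15, 17 and 20 are called primitive endoderm-like, with 7 primitive endoderm markers among their 10. Fgf4 read 10.64 to 12.21 in the first set and was below the floor throughout the second. Gata4 read 3.29 to 5.07 and 7.37 to 10.54, and Gata6 3.29 to 9.67 and 10.63 to 11.89. Not every lineage marker followed the names. Among epiblast markers, 7 of the 10 compared were at least 2-fold higher in the epiblast-like cells, but Esrrb, Tdgf1 and Bmp4 were not. Nanog exceeded the floor in 7 primitive endoderm-like cells too. Among primitive endoderm markers, 12 of the 13 compared were at least 2-fold higher in the primitive endoderm-like cells. Hnf4a went the other way (primitive endoderm-like minus epiblast-like -2.44). The clusters come from the same cells, so differences between them are described without a test. A member was set between clusters if it was above the floor in at least 3 cells (29 of 36 members, 80.6%, against 48.3% of all genes).

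The inner cell mass cells read a core of junction genes in every cell and a second set in only some cells. Of the 36 members, 11 were above the floor in all 20 cells (30.6%, against 14% of all genes), 4 in 18 or 19 cells, 14 in 3 to 17 cells (38.9%, against 27.8%), 3 in 1 or 2 cells and 4 in 0 cells (11.1%, against 43.3% of all genes). The 11 were Cdh1, Ctnna1, Ctnnb1, Ctnnd1, Tjp1, Cldn3, Epcam, Pkp4, Prkci, Crb3 and Ezr. The 4 at 0 were P-cadherin (Cdh3), Cldn6, desmocollin 2 (Dsc2) and plakophilin 2 (Pkp2). The counts move with the reading: 5 members were in all cells with the mean over probe sets and 6 with the floor at the 99th percentile, and those in 0 cells numbered 2 at the 90th percentile and 8 at the 99th. A steady reading is not by itself a level of the gene: 6 of the 237 probe sets for unrelated genes were also above the floor in all 20 cells, with means of 7.90 to 10.11 and SDs of 0.21 to 0.37.

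**Figure D1:**
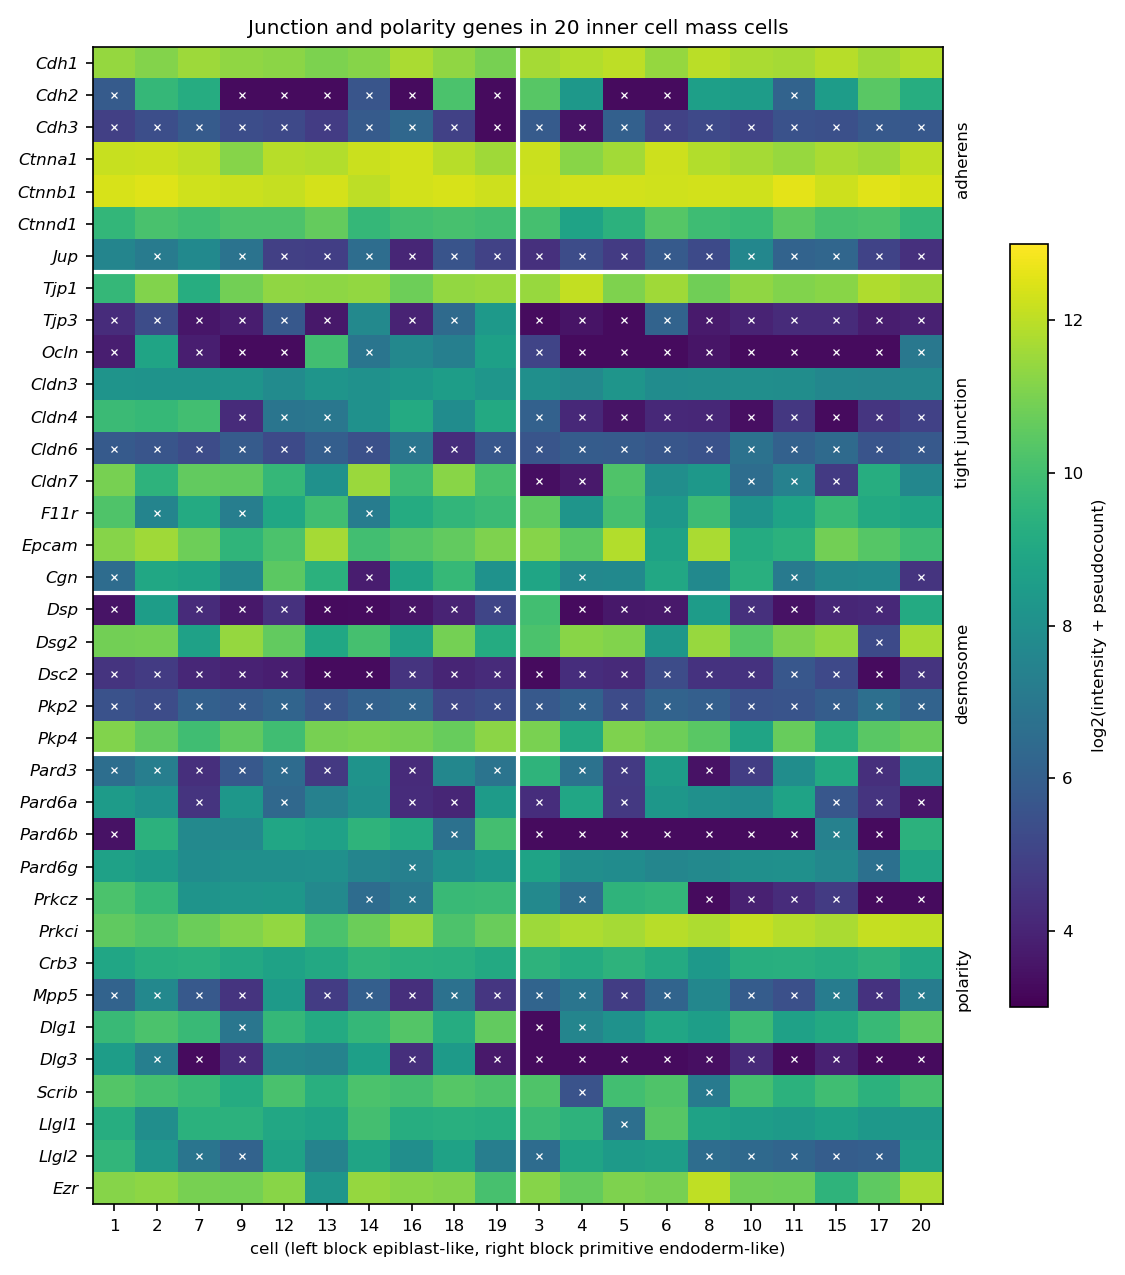
Each row is 1 of the 36 members and each column 1 of the 20 cells, with colour for log2(intensity + pseudocount) and a white cross where the value was not above the floor of that array. Rows such as Cdh1 and Ctnnb1 are bright across both blocks of cells, Cldn4 and Dlg3 have uncrossed cells only in the left, epiblast-like block, and Cdh3, Cldn6, Dsc2 and Pkp2 are crossed throughout.

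Members per cell numbered 20 to 26 in the epiblast-like cells (median 24) and 18 to 23 in the other cluster (median 20). The ranges overlapped, and the epiblast-like cells also read more genes of any kind above the floor (median 6480 against 6210). Over the 20 cells the number of members had r = 0.46 (rho = 0.55) with the number of all genes above the floor, a description of arrays that share their floor rule. The gap between the clusters lay in the tight junction members, with a median of 7 of 10 against 5 (ranges 5 to 9 and 4 to 6), and in the polarity members, with a median of 11 of 14 against 8 (ranges 8 to 12 and 6 to 11). The adherens members (median 4 of 7 against 5) and the desmosome members (2 of 5 in both) did not share it. The highest count was 26, in cells 2, 18 and 19, and the lowest was 18, in cells 4 and 17.

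**Figure D2:**
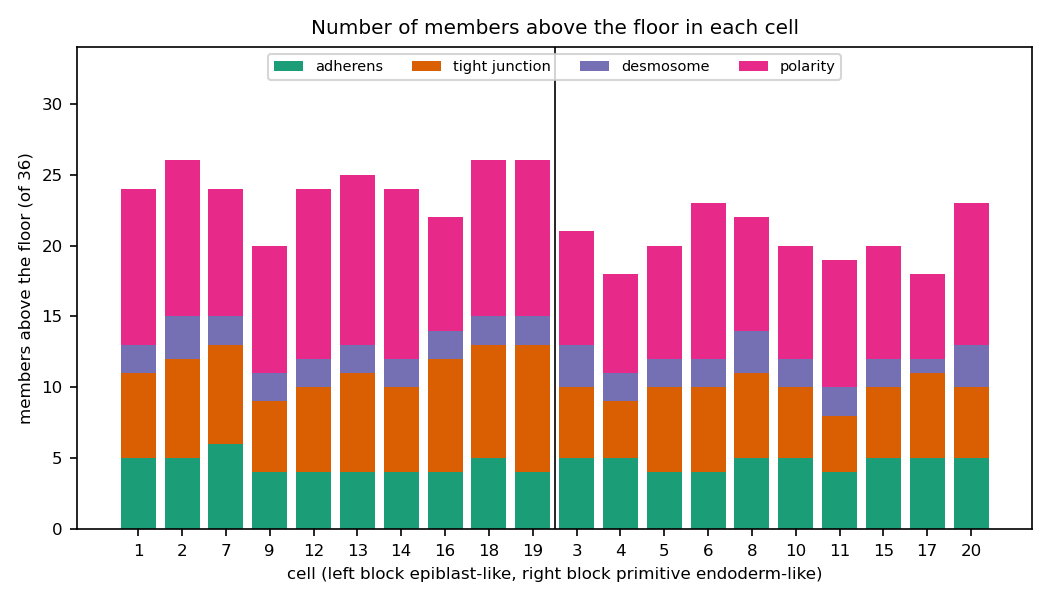
The height of a bar is the number of the 36 members above the floor in 1 cell, stacked by class, with the 10 epiblast-like cells on the left and the 10 primitive endoderm-like cells on the right. The left bars run from 20 to 26 and the right bars from 18 to 23.

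Between the clusters, 7 of the 29 members had means at least 2-fold apart in favour of the epiblast-like cells (24.1%, against 12.3% of the 8793 genes tested) and 3 in favour of the primitive endoderm-like cells (10.3%, against 8.44%). The 7 were Cldn4, Cldn7, Ocln, Pard6b, Prkcz, Dlg3 and Dlg1, and the 3 were Cdh2, Dsp and Prkci. Most of these contrasts are between cells above the floor and cells below it, whose size depends on how low values are read. Once values below the floor were set to the floor, 2 members stayed past 2-fold in the first direction, Cldn4 and Cldn7 (6.9%, against 3.08%), and 1 in the second, Prkci (3.45%, against 2.27%). The median difference over the 29 members was -0.32 (primitive endoderm-like minus epiblast-like) and -0.05 over all tested genes. The difference exceeded the larger SD of the clusters for 6 members higher in the epiblast-like cells (20.7%, against 5.15% of tested genes), namely Cldn3, Cldn4, Cldn7, Pard6b, Prkcz and Dlg3. It did so for 2 members higher in the primitive endoderm-like cells (6.9%, against 3.51%), namely Cdh1 and Prkci. Because the members were chosen with earlier results of these data known, these shares do not test for an excess among junction genes.

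**Figure D3:**
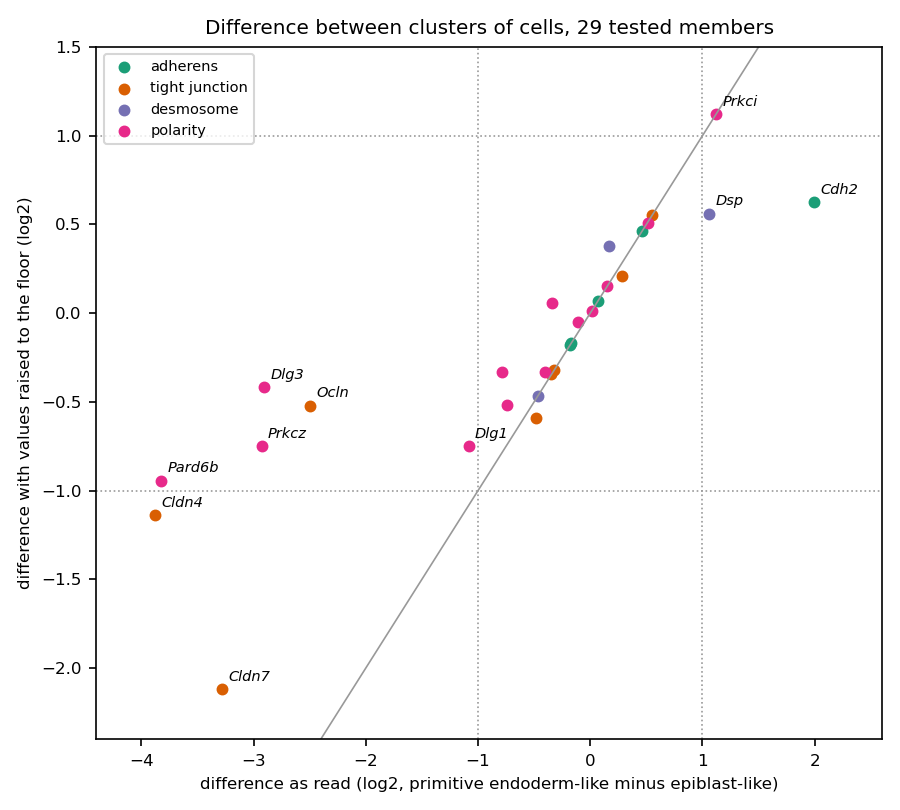
Each point is 1 of the 29 tested members. The horizontal axis gives the difference between the cluster means as read and the vertical axis the difference with values raised to the floor, both in log2 and as primitive endoderm-like minus epiblast-like. The dotted lines mark a 2-fold difference, and on the grey line both readings are equal. Cldn4, Pard6b, Prkcz, Dlg3 and Ocln lie far above the line, Prkci lies on it, and Cldn7 keeps the largest difference on the vertical axis (-2.12).

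The atypical protein kinase C genes had opposite patterns. Prkci, the kinase of the PAR complex known as the iota isoform, was above the floor in all cells and higher in the primitive endoderm-like ones. In the epiblast-like cells it read 10.58, 10.33, 10.74, 11.11, 11.37, 10.15, 10.74, 11.40, 10.22 and 10.73, in the order of cells given above. In the primitive endoderm-like cells it read 11.53, 11.78, 11.66, 11.92, 11.78, 12.12, 11.89, 11.72, 12.13 and 12.06. The lowest primitive endoderm-like cell (cell 3) stood 0.13 above the highest epiblast-like cell (cell 16), so the clusters did not overlap, which held for 1 of 29 members (3.45%) and 0.182% of tested genes in this direction. In the other direction it held for 0 members and 0.114% of tested genes. The means were 11.86 ± 0.20 and 10.74 ± 0.45 (SD, n = 10 cells each), a difference of 1.12 that ran from 1.06 to 1.19 as single cells were left out. The gap depends on where cell 6 (11.92) is placed: it joined the epiblast-like cells with 250 or 1000 clustering genes, and with cell 10 under a floor at the 90th percentile or no filter. The clusters then overlapped, and the difference was 1.01 and 0.87. A second Prkci probe set, which exceeded the floor in 5 cells, differed by 0.96 in the same direction.

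Prkcz, the zeta isoform of the same kinase family, went the other way. It exceeded the floor in 8 cells of the epiblast-like cluster and 3 of the other. Its values were 10.17, 9.68, 8.18, 8.23, 8.30, 7.71, 6.54, 7.02, 9.77 and 9.83 in the epiblast-like cells. The primitive endoderm-like cells read 7.72, 6.58, 9.49, 9.62, 3.29, 3.90, 4.27, 4.74, 3.29 and 3.29. The second set splits into cells 3, 5 and 6, above the floor, and 7 cells below it, so the clusters overlapped. The means were 8.55 ± 1.27 and 5.62 ± 2.54, and the difference of -2.93 was -0.75 with values raised to the floor. It rests on 1 of 3 probe sets: the others were above the floor in 1 cell each and differed by -0.11 and -0.06. Over the 20 cells Prkcz and Prkci had r = -0.68 (rho = -0.69), with r = -0.43 within the first cluster and -0.55 within the second, and -0.48 over all cells with values raised to the floor.

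Pard6b encodes one of the adaptors that hold the kinase in the PAR complex. It exceeded the floor in 8 of the 10 epiblast-like cells, all but cells 1 and 18, and in cell 20 alone of the primitive endoderm-like ones. Its values were 3.47, 9.44, 7.72, 7.72, 8.92, 8.72, 9.51, 9.10, 6.74 and 9.99 in the epiblast-like cells. In the primitive endoderm-like cells 8 read the minimum of 3.29, cell 15 read 7.39 and cell 20 read 9.41. The means were 8.13 ± 1.91 and 4.31 ± 2.21. The difference of -3.82, or -0.94 with values raised to the floor, was matched by the other Pard6b probe set (-3.84, above the floor in 9 and 1 cells). The related adaptor genes did not share this. Pard6a was above the floor in 6 and 5 cells (6.80 ± 1.84 and 6.46 ± 2.10). Pard6g read 8.03 ± 0.41 and 7.92 ± 0.61, above the floor in 9 and 9 cells by 1 probe set and in 1 and 2 by the other. The scaffold gene Pard3 exceeded it in 2 and 5 cells (6.20 ± 1.40 and 6.71 ± 2.19), with the ranges overlapping.

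Among the claudins, which form the sealing strands of tight junctions, Cldn4 and Cldn7 were higher in the epiblast-like cells. Cldn4 read 9.80, 9.71, 9.96, 4.25, 6.87, 6.95, 8.05, 9.11, 7.86 and 9.08 there, above the floor in 7 cells and below it in cells 9, 12 and 13. The primitive endoderm-like cells read 6.10, 4.17, 3.53, 4.17, 4.12, 3.41, 4.62, 3.29, 4.53 and 4.94, above the floor in 0 of 10. Set against the floor of each array in those cells, Cldn4 was at least 1.68-fold higher in the epiblast-like cells. That bound takes cells 9, 12 and 13 as read. The means as read were 8.16 ± 1.78 and 4.29 ± 0.84, the second wholly from values below the floor.

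Cldn7 was above the floor in all 10 epiblast-like cells, with 10.96, 9.47, 10.61, 10.54, 9.65, 8.05, 11.48, 9.86, 11.24 and 10.08. In the primitive endoderm-like cells it read 3.38, 3.70, 10.26, 7.93, 8.33, 6.59, 7.40, 4.68, 9.24 and 7.61. Of these, cells 5, 6, 8, 17 and 20 were above the floor, and cells 5, 8 and 17 lay within the range of the epiblast-like cells. The means were 10.19 ± 1.01 and 6.91 ± 2.32, a difference of -3.28, or -2.12 with values raised to the floor. Cldn4 and Cldn7 each had 1 probe set.

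Cldn3 and Cldn6 were less than 2-fold apart by the probe sets used. Cldn3 read 8.01 ± 0.26 in all 20 cells by its brightest probe set, with 8.18 ± 0.20 and 7.84 ± 0.19 in the clusters, a reading as steady as those of the 6 probe sets for unrelated genes. Its 3 other probe sets exceeded the floor in 0, 2 and 2 cells, all of them epiblast-like, with differences of -0.04, -1.50 and -1.76. Cldn6 was above the floor in no cell, with 4.30 as the lowest, 5.78 ± 0.55 as the mean and 6.87 as the highest value.

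**Figure D4:**
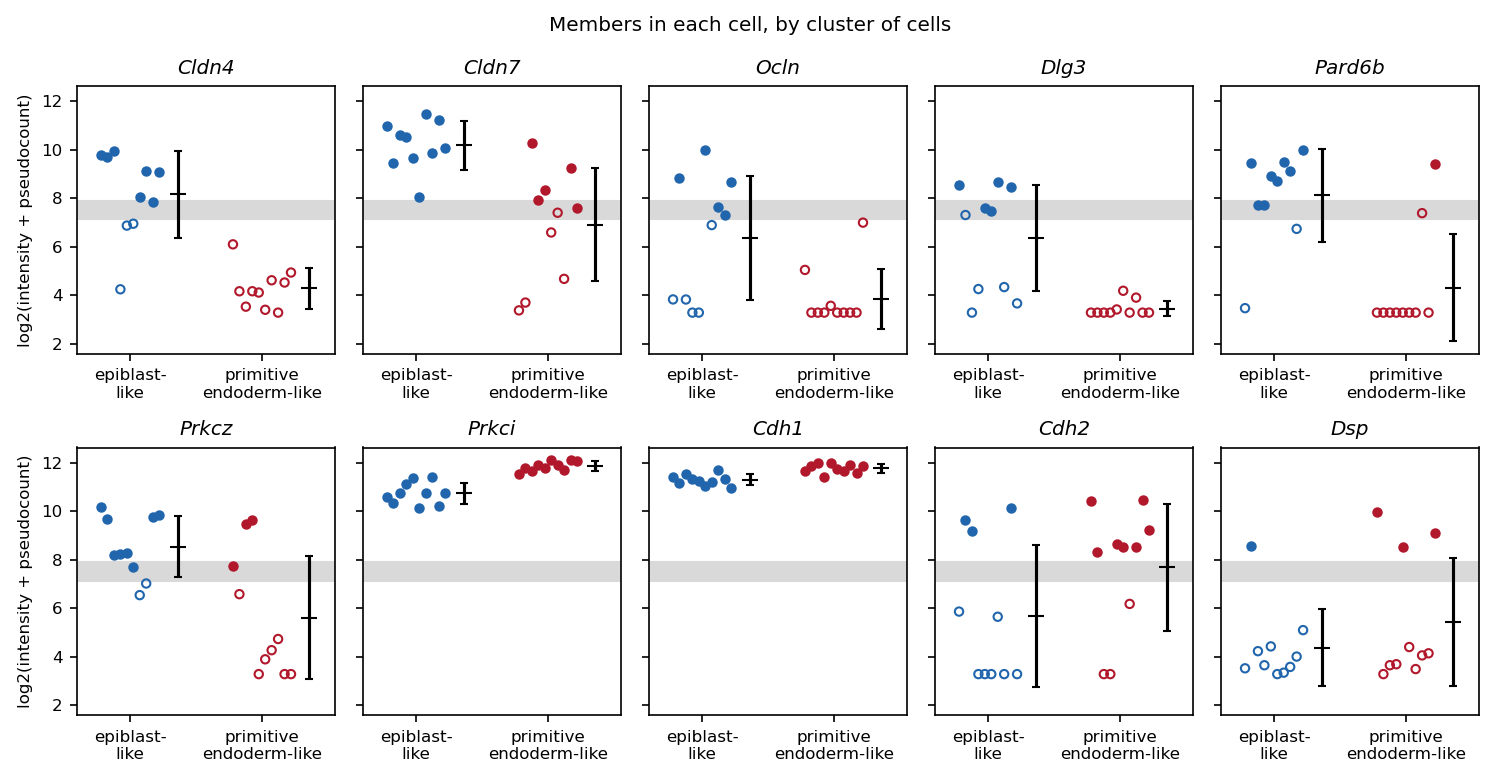
Each dot is 1 cell and its height log2(intensity + pseudocount), filled where above the floor of its array and open where not. Blue marks the 10 epiblast-like and red the 10 primitive endoderm-like cells, bars give the mean ± SD, and the grey band spans the floors of the 20 arrays (7.13 to 7.90). The red Prkci dots all lie above the blue ones, while for Cldn4, Ocln and Dlg3 no red dot is filled.

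Occludin, the gene Ocln, encodes a membrane protein of the tight junction. It was above the floor in 5 epiblast-like cells, cell 2 (8.83), cell 13 (9.98), cell 16 (7.66), cell 18 (7.33) and cell 19 (8.68). No primitive endoderm-like cell was above the floor. The highest of them was cell 20, below its floor of 7.38. The mean of all epiblast-like cells (6.36 ± 2.56) was below the floor, so no fold is given, and the difference as read was -2.50. The other Ocln probe set was above the floor in 1 cell only, an epiblast-like one, and differed by -1.08. Zonula occludens 3 (Tjp3) was above the floor in 2 cells, cells 14 (7.71) and 19 (8.39), both epiblast-like.

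The other tight junction members were read in most cells of both clusters. Zonula occludens 1 (Tjp1), the main scaffold beneath the strands, read 10.85 ± 0.78 and 11.40 ± 0.37, with its lowest values in cells 1 (9.66) and 7 (9.24). The adhesion molecule gene Epcam read 10.69 ± 0.70 and 10.37 ± 1.07. Junctional adhesion molecule A (F11r) exceeded the floor in 7 and 10 cells (8.88 ± 1.14 and 9.16 ± 0.83). A second F11r probe set exceeded it in 8 and 6 cells and differed by -0.08. Cingulin (Cgn), a cytoplasmic plaque protein, was above the floor in 8 and 7 cells (8.22 ± 1.90 and 7.73 ± 1.35). By the probe sets used, none of these 4 genes had a difference that reached the larger of the cluster SDs.

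E-cadherin (Cdh1), the cadherin that holds the early embryo together, was among the steadiest members and was slightly higher in the primitive endoderm-like cells. It ran from 10.96 to 11.71 with a median of 11.30 in the epiblast-like cluster, and from 11.42 to 11.99 with a median of 11.78 in the other. The means were 11.30 ± 0.23 and 11.76 ± 0.19, a difference of 0.47 that exceeded both SDs, although the ranges overlapped. Over the 20 cells Cdh1 had r = 0.74 with Prkci (rho = 0.68), a pair chosen after their values were seen. Within the clusters r was 0.48 and -0.37.

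The catenins, which link the cadherin to actin, had smaller differences. Beta-catenin (Ctnnb1) read 12.29 ± 0.14 and 12.36 ± 0.12, alpha-catenin (Ctnna1) 11.94 ± 0.34 and 11.76 ± 0.32, and p120 catenin (Ctnnd1) 10.04 ± 0.30 and 9.87 ± 0.50. Each was above the floor in 20 of 20 cells, and each difference was smaller than the larger SD. Plakoglobin (Jup), which serves both adherens junctions and desmosomes, was above the floor in 2 cells, cells 1 (7.56) and 7 (7.74).

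N-cadherin (Cdh2) was read in some cells of both clusters. It was above the floor in 3 epiblast-like cells, cell 2 (9.65), cell 7 (9.20) and cell 18 (10.15), and in 7 primitive endoderm-like cells, all but cells 5, 6 and 11. Its highest value was 10.45, in cell 17. The means were 5.70 ± 2.92 and 7.69 ± 2.61, and the difference of 1.99, or 0.63 with values raised to the floor, was smaller than either SD. A second Cdh2 probe set was above the floor in 2 and 4 cells and differed by 0.97.

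The desmosomal members were read unevenly. Desmoplakin (Dsp), which anchors keratin filaments, was above the floor in cell 2 (8.57) among the epiblast-like cells and in cells 3 (9.97), 8 (8.54) and 20 (9.12) among the others. All other cells read between 3.29 and 5.10. The difference of 1.06 was 0.56 without cell 3. Desmoglein 2 (Dsg2), a desmosomal cadherin, was above the floor in 19 cells, all but cell 17 (5.25), with 8.73 to 11.40 (median 10.34) and 5.25 to 11.70 (median 11.09) in the clusters. Another Dsg2 probe set was above the floor in 9 and 8 cells, and the rest in fewer. Plakophilin 4 (Pkp4), a relative of p120 catenin, was above the floor in all cells (10.70 ± 0.46 and 10.24 ± 0.83). All 4 Pkp2 and both Dsc2 probe sets were below the floor in every cell.

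Of the basolateral Scribble module, Dlg3 was read only in epiblast-like cells: cells 1 (8.55), 12 (7.59), 13 (7.48), 14 (8.66) and 18 (8.45) were above the floor, and the highest primitive endoderm-like value was 4.19. With a mean of 6.36 ± 2.19 below the floor in the epiblast-like cells, no fold is given. Dlg1, its close relative, was above the floor in 9 and 8 cells, reading 6.94 to 10.59 (median 9.71) and 3.29 to 10.52 (median 8.83). Its difference of -1.08 was -0.51 without cell 3 and -0.96 without cell 19. Other Dlg1 probe sets differed by -1.37 (above the floor in 3 and 0 cells) and -0.32 (7 and 6 cells). Scrib was above the floor in all epiblast-like cells (9.94 ± 0.41) and in 8 primitive endoderm-like cells (9.20 ± 1.58), with cells 4 (5.57) and 8 (7.11) below it. Llgl1 read 9.15 ± 0.53 and 8.75 ± 1.01. Llgl2 was above the floor in 8 and 4 cells, reading 6.20 to 9.56 (median 8.11) and 5.95 to 8.83 (median 6.55). None of Scrib, Llgl1, Llgl2 and Dlg1 had a difference beyond the larger SD by the probe sets used.

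Of the Crumbs module, Crb3 read 9.17 ± 0.28 in all cells with a difference of 0.01 between clusters. That reading was by 1 of 3 probe sets, the others being above the floor in 2 cells each. Its mean and SD lay within those of the 6 steady probe sets for unrelated genes. Mpp5, which encodes the Pals1 adaptor, was above the floor in 2 cells, cells 12 (8.45) and 8 (7.65). Ezrin (Ezr), which links apical membrane to actin, read 10.77 ± 0.96 and 10.92 ± 0.69. Its lowest value was 8.25, in cell 13, with 12.03 as the highest.

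No member passed the test of spread over cells. The variance of each gene was compared with the trend at its mean level over all 8793 tested genes (limma's trended prior variance, one-sided F test, Benjamini-Hochberg). It called 0 genes (0%), with 39 genes and 0 members at an unadjusted p under 0.05. The members with the largest ratio to the trend were Cldn7 (7.38 times, limma F test p = 0.087) and Cdh2 (7.24 times, p = 0.089), each with an adjusted p of 0.75. The test did not call Fgf4 either, at 19.7 times the trend (limma F test p = 0.027, adjusted p = 0.75), although its clusters did not overlap, so missing the threshold does not show that a member was steady. The median SD of the 29 members was 1.17, against 1.20 over all tested genes.

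The 14 members read in 3 to 17 cells formed 91 pairs, of which the median r over the 20 cells was 0.06. The highest were Ocln with Pard6b (r = 0.69), Ocln with Cldn4 (0.60), Cldn4 with Prkcz (0.56), Dlg3 with Llgl2 (0.56) and Cldn4 with Dlg3 (0.56). Most join genes that were higher in the epiblast-like cells. Within that cluster Cldn4 and Dlg3 had r = -0.01, and in the other neither was above the floor. Dlg3 and Llgl2 had r = 0.82 within the epiblast-like cells and -0.46 within the others, where Dlg3 was below the floor throughout. Ocln and Pard6b were both above the floor in 4 cells, Ocln alone in 1, Pard6b alone in 5 and neither in 10. The lowest were Cdh2 with Prkcz (-0.42, but 0.39 within the epiblast-like cells and -0.12 with values raised to the floor), F11r with Pard6a (-0.40), Cldn7 with Pard3 (-0.36), Cdh2 with Cldn7 (-0.36) and Cdh2 with Pard6a (-0.34). These cells share the amplification method and array type, and values under the floor enter as read.

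Cldn7 was set beside Nanog, a transcription factor gene of the epiblast, in the primitive endoderm-like cells. In cells 3, 4 and 15 both genes were below the floor. Cells 4 and 15, with the lowest Nanog (3.29 and 3.48), had Cldn7 at 3.70 and 4.68, cell 3 (Nanog 6.82) had the lowest Cldn7 (3.38), and cell 5, with Nanog at 10.99, had Cldn7 at 10.26. The order was not shared by cell 6 (Nanog 11.83, the highest of the cluster, and Cldn7 7.93), cell 11 (9.55 and 7.40) or cell 17 (7.98 and 9.24). The r was 0.86 over the 20 cells (rho = 0.74), 0.78 within the primitive endoderm-like cells and -0.10 within the epiblast-like cells, where Nanog ran only from 11.93 to 12.44. Over the 7 primitive endoderm-like cells with either gene above the floor, r was 0.38. This pair was chosen after its values were seen.

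**Figure D5:**
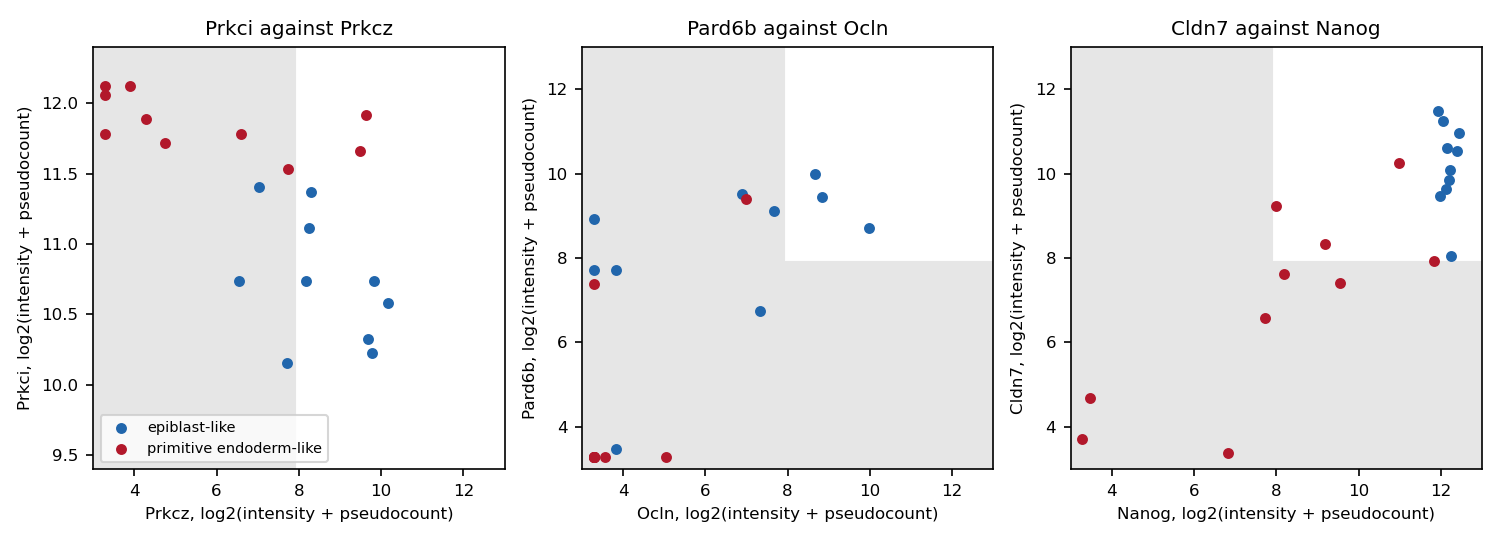
Each dot is 1 cell, blue for epiblast-like and red for primitive endoderm-like, with both axes in log2(intensity + pseudocount) and grey where a value is below the highest floor (7.90). From left to right, Prkci falls as Prkcz rises (r = -0.68), Pard6b is plotted against Ocln (r = 0.69), and Cldn7 against Nanog (r = 0.86). The left panel has a narrower vertical axis, as Prkci ran only from 10.15 to 12.13.

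Markers of the trophectoderm, which is sealed by tight junctions, were measured beside the members. Of 16 markers with a probe set, 7 were above the floor in 0 cells: Krt18, Krt7, Krt19, Gata3, Elf5, Atp12a and Id2. Of all genes, 43.3% were above the floor in 0 cells, so this count does not set the markers apart. Cdx2 exceeded it in 11 cells (7.43 ± 0.35). Its values of 6.81 to 8.26 lay around the floors of 7.13 to 7.90, with an SD like those of the steady unrelated probe sets (0.21 to 0.37). They do not show that Cdx2 transcript was present. Krt8 exceeded the floor in 9 cells (6.61 ± 2.46), Eomes in 9 (6.27 ± 2.34), Tfap2c in 13 (7.78 ± 3.16) and Tead4 in 11 (7.03 ± 1.96). Lgals3 did so in 4 cells (6.45 ± 1.35), all epiblast-like, Fabp3 in 15 (7.66 ± 0.41), Slc2a3 in 6 (5.30 ± 2.76) and Hand1 in 20 (13.70 ± 0.08). Fabp3 ran only from 6.84 to 8.64, again around the floors. The Hand1 probe set gave a brighter signal than that of the reference gene Eef1a1 (13.40 ± 0.04), which does not compare the levels of the genes. The Hand1 median in the primitive endoderm-like cells equalled its highest value (13.78). So steady and high a reading is not taken as a level of Hand1. The summed intensity of the markers without Hand1 was 631 to 3803 in the first cluster and 1293 to 4907 in the second. With Hand1 it was 13395 to 17091 and 14393 to 17671. The number of tight junction members above the floor had r = 0.03 with the number of trophectoderm markers above it over the 20 cells, -0.63 within the first cluster and 0.86 within the second. The part of these markers in the differences above was not tested.

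Of 96 further junction and polarity genes, 87 had a probe set and 40 were above the floor in at least 3 cells. Of these, 10 had a mean at least 2-fold higher in epiblast-like cells and 4 had one lower by as much (5 and 2 with values raised to the floor). Over all tested genes the shares were 12.3% and 8.44% (3.08% and 2.27% raised). The largest difference among genes higher in the primitive endoderm-like cells was that of angiomotin (Amot), a junction-bound partner of the Hippo pathway, at 11.42 ± 0.25 against 8.55 ± 2.08, with no overlap between clusters. The coxsackievirus and adenovirus receptor gene Cxadr, a tight junction adhesion molecule, exceeded the floor in 10 of 10 primitive endoderm-like and 3 of 10 other cells (difference 2.50). With values raised to the floor the Cxadr difference was 0.90, under 2-fold. On the other side were Plekha7, an adherens junction adaptor (-2.92), the actin-binding protein gene Lima1 (-2.54), vinculin (Vcl, -2.41) and Ect2, a gene needed for cytokinesis (-2.30). Raised to the floor, these differences were -0.93, -0.73, -1.31 and -1.60, so Plekha7 and Lima1 fell under 2-fold.

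The start-site regions of Cldn4, Pard6b and Prkci are shown because Cldn4 and Pard6b were read almost only in epiblast-like cells while Prkci was higher in the others. They are RefSeq sequences (GRCm38.p6), 250 bases before to 50 after the start, 5′ to 3′ on the gene's strand. Capitals mark matches on either strand to the GC box GGGCGG, the GATA core GATAA, the TFAP2 palindrome GCCNNNGGC and the E-box CACGTG.
Cldn4, chr5:134946885-134947184, minus strand: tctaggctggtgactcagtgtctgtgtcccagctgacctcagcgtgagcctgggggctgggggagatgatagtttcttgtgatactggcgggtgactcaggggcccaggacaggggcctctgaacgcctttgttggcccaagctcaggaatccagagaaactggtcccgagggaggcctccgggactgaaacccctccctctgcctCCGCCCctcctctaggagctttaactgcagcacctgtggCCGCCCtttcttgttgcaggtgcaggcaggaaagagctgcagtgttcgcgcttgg
Pard6b, chr2:168080754-168081053, plus strand: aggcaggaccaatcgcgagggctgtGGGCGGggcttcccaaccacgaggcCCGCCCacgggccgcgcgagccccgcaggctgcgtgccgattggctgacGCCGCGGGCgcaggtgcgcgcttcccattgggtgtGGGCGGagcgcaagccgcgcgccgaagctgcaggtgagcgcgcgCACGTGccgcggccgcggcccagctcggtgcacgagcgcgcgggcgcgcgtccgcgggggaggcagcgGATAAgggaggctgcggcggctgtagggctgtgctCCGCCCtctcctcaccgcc
Prkci, chr3:30995521-30995820, plus strand: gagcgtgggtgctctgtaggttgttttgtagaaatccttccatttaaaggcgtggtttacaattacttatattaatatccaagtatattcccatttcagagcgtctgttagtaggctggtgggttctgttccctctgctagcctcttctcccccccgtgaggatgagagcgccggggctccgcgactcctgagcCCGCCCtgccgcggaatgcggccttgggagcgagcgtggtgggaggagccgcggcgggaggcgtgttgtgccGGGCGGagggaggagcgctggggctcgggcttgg
The Cldn4 window held 2 GC boxes and no match to the other motifs. The Pard6b window held 4 GC boxes and 1 match each to the GATA core, the TFAP2 palindrome and the E-box, none overlapping another. The Prkci window held 2 GC boxes. Among 32851 such windows of all genes, 35.7% held a GC box, 25.4% the GATA core, 16.6% the TFAP2 palindrome and 7.15% the E-box. Of the 40 windows listed for 25 of the members, 29, 7, 14 and 8 did. A match is a match of letters only.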

How the data were processed

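Per the labels' protocols, the cDNA of each cell was PCR-amplified without purification and labelled as biotinylated cRNA. The authors deposited linear intensity values for each probe set (1 to 26616, with 10.1% to 13.4% of an array at 1). Summarising software, background correction, scaling and genome build: not given in the sources used here.

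Of 45101 probe sets, 34945 had 1 gene in GEO's platform annotation, 932 several and 9160 none, and 64 were controls; 34741 matched the RefSeq table by Entrez identifier. Arrays were quantile-normalized, since their 2%-trimmed means ran from 182.5 to 221.2. As pseudocount served the 25th percentile of an array, taken as the median of the 20. The variance test (limma 3.58.1, R 4.3.3) took the genes that exceeded the floor in 3 or more cells. Cells were clustered by Ward's method (scipy 1.17.1) on the 500 genes with the largest variance ratio outside all lists. The steps were tested on simulated data in which most genes had their variance at the trend. Variances differed more from gene to gene in the real data, so that run does not show what the variance test can find here. Pairs of arrays that shared most values numbered 0. The members and lists were chosen with earlier results of these data known. Every member is named, as are the 6 other junction genes with the largest difference and the 5 highest and lowest pairs. P-values only compare the variance of a gene over these cells with the trend across genes. The labels do not tie the cells to embryos. Alternatives covered normalization, pseudocount, floor, probe set, filter, clustering and cells left out. No doublet caller was run on these singly picked cells.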

Additional observations from a re-analysis of the deposited data

How the results depend on the processing

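Directions of the 10 differences past 2-fold held under every alternative run. With the mean over all probe sets of a gene, 5 members were above the floor in all cells. With the floor at the 99th percentile of the background probe sets, 6 members were above it in all cells and 8 in none, with a median of 16 members per cell; at the 90th percentile 2 were above it in none. With values raised to the floor, 2 and 1 members stayed past 2-fold (7 and 3 as read), the differences of Cldn4, Pard6b and Dlg3 were -1.14, -0.94 and -0.42, and r was 0.46 for Ocln and Pard6b, -0.12 for Cdh2 and Prkcz, -0.48 for Prkcz and Prkci and 0.75 for Cldn7 and Nanog. Within the epiblast-like cells these 4 values of r were 0.50, 0.39, -0.43 and -0.10. Within the primitive endoderm-like cells r was -0.68 for Cdh2 and Prkcz and 0.78 for Cldn7 and Nanog, or 0.38 without the cells in which both were below the floor, an alternative chosen after seeing the data. With the pseudocount from the 10th percentile another, nearly flat probe set of Prkcz was the brightest, and its difference was -0.12. The brightest probe set of Ocln changed as well, and the Ocln difference was -1.38. Leaving out single cells gave 6 to 7 and 2 to 3 members past 2-fold. Cell 6 joined the epiblast-like cells with 250 or 1000 clustering genes, and cells 6 and 10 did with the 90th percentile floor or no filter, which made the Prkci difference 0.87, under 2-fold. No paired analysis was possible because the cells form 1 group. The pairs with Prkci and Nanog were added after the data were seen.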
